A study of Mus musculus with 20 samples.

Results

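Mouse embryonic fibroblasts kept for 24 h in 1 mM AICAR were set against the same cells at 0 h without AICAR, on 3 arrays each, so 6 of the 20 arrays of the series, chosen by their titles. The cells were SV40-immortalized and carried a knockout of both genes for the catalytic subunit of AMP-activated protein kinase (AMPK), Prkaa1 and Prkaa2. That genotype was shared by all arrays, the 0 h controls included, and no wild-type array was analysed here. The other AICAR groups, at 1, 2, 4, 8 and 12 h, shared the estimate of spread, and the 3 arrays at 12 h also served as a second point of comparison for the 24 h cells. The question was which transcripts differ after a day in AICAR when AMPK activity is missing. Because the untreated cells were collected at 0 h, 24 h of AICAR and 24 h of further culture cannot be told apart. The labels do not say whether the cells are 1 clone or whether replicates came from separate dishes, so p-values reflect only the variation among these arrays, and that variation may be technical.

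AICAR is an adenosine analog that enters cells through nucleoside transporters and is phosphorylated by adenosine kinase to ZMP, which mimics AMP and is itself an intermediate of purine synthesis. It is widely used to switch on AMPK, the kinase that senses a fall in cellular energy, and ZMP can also act on other enzymes that bind AMP. The pathways that recur below are known from general biology. Type I interferons signal through JAK kinases to transcription factors that bind a short promoter element of antiviral genes. In the Hippo pathway the kinases LATS1 and LATS2 hold the coactivators YAP and TAZ outside the nucleus. MYC drives the genes that build ribosomes, and TFEB and its relatives drive those of lysosomes.

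Values are log2 signals as deposited, 1 probe set for each gene. The medians of the arrays were 5.16, 5.16 and 5.24 in the AICAR 24 h cells, against 5.18, 5.20 and 5.24 in the 0 h cells. Replicate 3 had a narrower interquartile range in both groups, 2.91 against 3.24 and 3.20 for replicates 1 and 2 at 24 h, and 2.89 against 3.09 and 3.08 at 0 h. RNA integrity was read from actin controls as the signal at the 3′ end minus that at the 5′ end, which was 0.503 to 0.557 at 24 h and 0.383 to 0.458 at 0 h, with no overlap. The same difference for Gapdh controls did overlap, at 0.125 to 0.154 at 24 h and 0.0766 to 0.228 at 0 h. With the actin difference as a covariate 5317 genes passed the test described next, 4666 of them among the 5229 that passed without it. The fibroblast label was checked against 16 markers on the arrays. Vim, the intermediate filament vimentin, stood at 13.19 at 24 h and 13.20 at 0 h, and S100a4 at 12.37 and 12.47, whereas Col1a2, Thy1, Lum and Fap were below background on all 6 arrays. Background here is 5.08, the 95th percentile of 23 non-specific control probe sets.

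After 24 h in AICAR, 5229 of 12944 genes tested, or 40.4%, differed from 0 h (limma, Benjamini-Hochberg adjusted p under 0.05). The number higher was 3342 (25.8%) and the number lower 1887 (14.6%). Every list count below is to be read beside these shares. Most changes were small. Of the genes called, 1684 rises and 1045 falls were under 0.5 on the log2 scale, and 499 genes (3.86%) changed at least 2-fold, 308 upward (2.38%) and 191 downward (1.48%). The split of the 2-fold calls moved with replicate 3: without that of the treated cells 400 were upward and 154 downward, and without that of the controls 250 and 220. The largest changes were upward. The fitted rise was over 3 on the log2 scale for 16 genes, of which 7 were below background on all 0 h arrays and have only a bound, at least 8-fold for 4 of the 7. No fitted fall was over 3. Of those 16 genes, 15 belong to 6 lists of interferon-related genes, which hold 125 of the 12944 genes tested (0.966%). These lists hold 50 of the 308 genes at least 2-fold higher (16.2%) and 0 of the 191 at least 2-fold lower. The lists were chosen with earlier results of these data known, so these overlaps describe the genes and test nothing. The median difference over all genes tested was 0.01. For 50% of the genes tested the arrays of the 2 groups did not overlap, 30% higher and 20% lower at 24 h, so such separation is common.

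**Figure D1:**
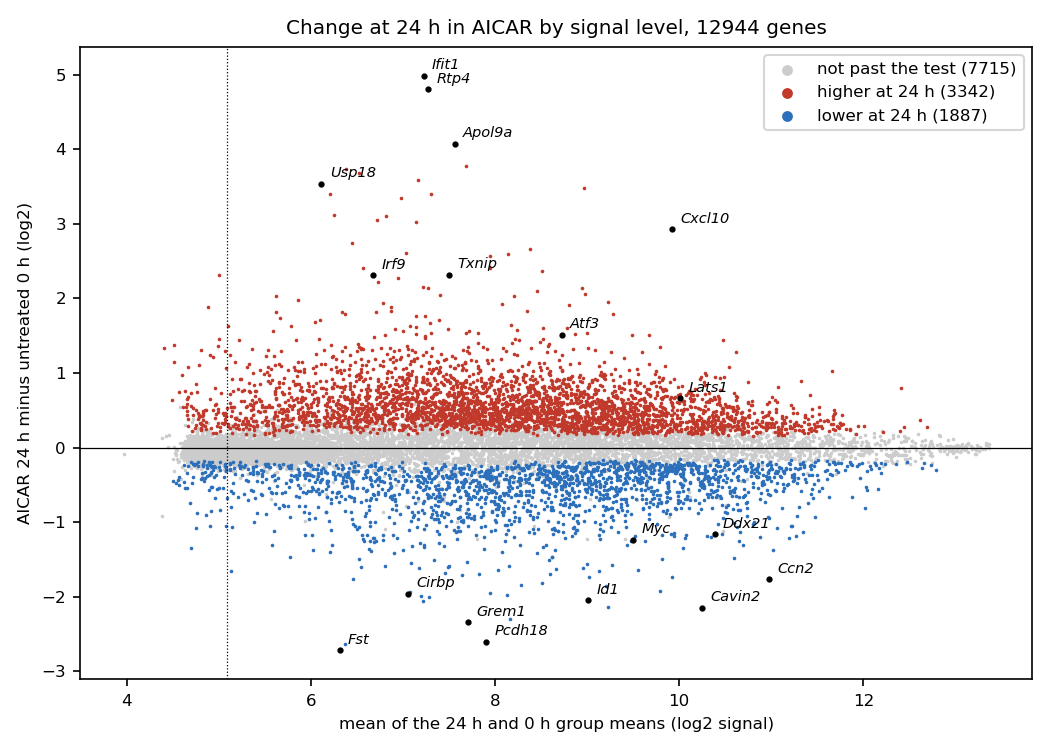
Difference between AICAR 24 h and untreated 0 h cells (y axis, log2) against the mean of the 2 group means (x axis, log2 signal) for the 12944 genes tested, 1 point a gene, red where higher and blue where lower at 24 h past the test. The dotted line marks the background level of 5.08. Fitted rises reach 4.99 (Ifit1, below background on all 0 h arrays) and fitted falls 2.72 (Fst, below background on 2 of 3 arrays at 24 h), and the 3342 rises outnumber the 1887 falls.

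The leading rises were genes that interferon is known to induce. Ifit1, whose protein binds viral RNA that lacks a host cap, had signals of 9.44, 10.01 and 9.70 in AICAR 24 h cells, against 4.62, 4.72 and 4.85 in 0 h cells. All 3 control arrays lay below background, so only a bound can be given: Ifit1 was at least 24.8-fold higher at 24 h (limma adjusted p = 1.58e-14). Rtp4, which encodes a receptor-transporting chaperone, had 9.48, 9.86 and 9.70 at 24 h, against 5.03, 4.87 and 4.70 at 0 h, and was at least 24.2-fold higher (adjusted p = 2.52e-16). Neither gene had a control array above background, and every treated array lay above 9. Bounds of at least 9.68-fold, 8.98-fold, 7.09-fold and 6.97-fold held for the immunity-related GTPase gene Irgm2, the guanylate-binding protein gene Gbp3, the E3 ligase gene Trim30d and Usp18, which removes ISG15 from proteins and dampens interferon receptor signalling. Among genes seen at 0 h, the chemokine gene Cxcl10 had 11.12, 11.52 and 11.54 at 24 h, against 8.53, 8.54 and 8.31 at 0 h, a rise of 2.93 ± 0.13 (SE; adjusted p = 1.35e-11). Ccl5, another chemokine gene, rose by 2.59, and Apol9a, an apolipoprotein L family gene, by 4.08. Averaged over probe sets, Rtp4, Trim30d and Trim12c were 2.55, 1.36 and 1.66 above the controls. Members of the Gbp, Ifit, Trim and MHC families are alike in sequence, and their probe sets may share signal.

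**Figure D2:**
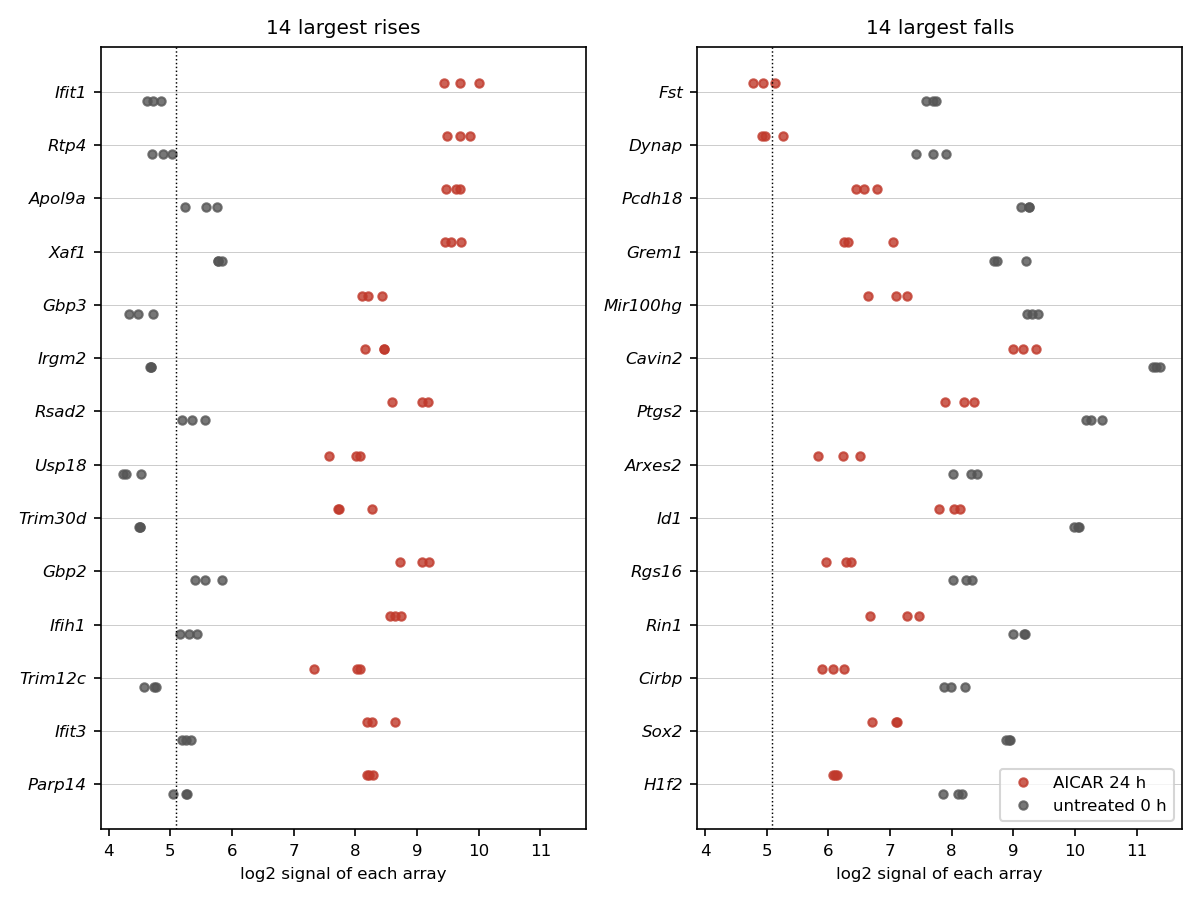
Log2 signal (x axis) of each array for the 14 largest rises (left) and the 14 largest falls (right) among genes past the test, 3 red points for AICAR 24 h above 3 grey points for untreated 0 h in each row. The dotted line is the background level of 5.08. Genes were taken only where the points of the 2 groups do not overlap, so that separation was fixed by the choice. Of the rises, 7 start below background on all 3 control arrays.

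The pathway is given by role, from ligand to effectors. Ifnb1, the interferon that fibroblasts make first, had 4.96, 4.94 and 5.17 at 24 h, against 4.94, 5.005 and 4.91 at 0 h, a difference of 0.07 ± 0.09 (SE; limma adjusted p = 0.602). Those signals overlapped and only 1 of the 6 was above background, so a change of an interferon transcript was not detectable with this probe set. Of 22 tested genes for ligands, receptors and JAK-STAT signalling, 10 rose and 1 fell, with a median of 0.30. Irf9, a transcription factor of interferon signalling, had 7.77, 7.90 and 7.82 at 24 h, against 5.58, 5.55 and 5.43 at 0 h, a rise of 2.31 ± 0.10 (adjusted p = 1.35e-11). All 3 treated arrays were far above all 3 controls. Stat2 rose by 1.10, Irf5, a transcription factor of the same family as Irf9, by 1.19, and the interferon gamma receptor gene Ifngr1 by 0.91. The 1 fall was in Socs3, a feedback inhibitor of cytokine signalling, by 0.38. It did not pass without replicate 3 of the AICAR 24 h cells (-0.31) or replicate 1 of the controls (-0.31).

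Sensors of foreign nucleic acid rose with the effectors. Of 23 sensor and adaptor genes 15 rose and 0 fell, with a median of 0.41. Ifih1, which encodes the RNA sensor MDA5, had 8.56, 8.75 and 8.64 at 24 h, against 5.31, 5.43 and 5.16 at 0 h, a rise of 3.35 ± 0.11 (limma adjusted p = 1.37e-13). Its groups were separated by more than 3 log2 units on every array. Ddx58, the gene for the RNA sensor RIG-I, rose by 1.96, Trim25, an E3 ligase that acts on RIG-I, by 2.41 and Tlr3, an endosomal RNA receptor, by 2.16. Of 34 tested antiviral effector genes 29 rose and 0 fell, with a median of 1.53, and 6 of the 34 were below background on all control arrays. Another 5 on the array stayed below the filter and were not tested. A gene under the filter level at 0 h is tested only where another group is brighter, so counts in such lists lean toward rises. Xaf1, a pro-apoptotic factor, rose by 3.78 (2.05 averaged over probe sets), Rsad2, which encodes the radical SAM enzyme viperin, by 3.58, and Ifit3 by 3.11. Of 10 genes for guanylate-binding proteins and immunity-related GTPases 9 rose and 0 fell, with a median of 1.68, including Gbp2 by 3.40 and Igtp by 2.57. Among 28 chemokine, cytokine and NF-kB target genes 10 rose and 6 fell, against 25.8% and 14.6% of all genes tested. Cxcl10 and Ccl5 thus stood beside falls of the prostaglandin synthase gene Ptgs2 by 2.14 and of Csf1, a macrophage growth factor gene, by 1.19 (0.56 averaged over probe sets).

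Antigen presentation moved the same way. Of 18 genes for MHC class I and peptide processing 15 rose and 0 fell, with a median of 0.97, and their control signals were well above background, with a median of 8.18. Psmb8, a catalytic subunit of the immunoproteasome, had 9.82, 9.78 and 9.69 at 24 h, against 7.92, 7.88 and 7.75 at 0 h, a rise of 1.92 ± 0.11 (SE; limma adjusted p = 6.57e-10; 1.03 averaged over probe sets). The treated arrays exceeded the control arrays throughout, as held for 30% of all genes tested. H2-Q4, a class I heavy chain gene, rose by 2.06, Nlrc5, the transcriptional activator of class I genes, by 1.82 and Erap1, the peptidase that trims peptides in the endoplasmic reticulum, by 1.47. The constitutive proteasome differed: of 32 subunit genes 3 rose and 4 fell, with a median of -0.03. Of 19 Trim family genes 13 rose, and 1, Trim28, a corepressor of transposable elements, fell by 0.27 (0.52 without probe sets that can match several transcripts).

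The promoters of these genes were read from RefSeq, GRCm38.p6, from 250 bases before to 50 bases after each start site, for 10401 of the genes tested. The interferon-stimulated response element was searched on both strands as GAAA, any 2 bases, and GAAA again. It occurred for 347 of those genes, or 3.34%, and in at least 1 window of 3.99% of the 27025 mouse genes that have one. It was found for 34 of 235 genes at least 2-fold higher with a window (14.5%), 176 of 6116 not called (2.88%) and 2 of 142 at least 2-fold lower (1.41%). The share was 7 of 8 for guanylate-binding proteins and immunity-related GTPases, 10 of 26 for antiviral effectors, 3 of 15 for MHC class I genes and 11 of 15 among the 20 largest rises. A match is a description of the letters, not evidence of binding. The stretches below show it in 6 of the leading rises, in capitals, each on the strand of its gene.
Ifit1, chr19:34640770-34640828, plus strand: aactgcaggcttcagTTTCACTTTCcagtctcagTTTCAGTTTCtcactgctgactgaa
Gbp3, chr3:142559984-142560029, plus strand: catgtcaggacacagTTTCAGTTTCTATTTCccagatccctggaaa
Irgm2, chr11:58214898-58214937, plus strand: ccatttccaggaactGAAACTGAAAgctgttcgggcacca
Trim30d, chr7:104507866-104507905, minus strand: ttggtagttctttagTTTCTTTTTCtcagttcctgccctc
Ifit3, chr19:34583358-34583431, plus strand: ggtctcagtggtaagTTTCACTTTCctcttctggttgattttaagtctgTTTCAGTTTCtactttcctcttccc
Cxcl10, chr5:92349078-92349117, minus strand: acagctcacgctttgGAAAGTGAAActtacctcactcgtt
The first match lay 104 bases before the start of Ifit1, 45 before that of Gbp3, 64 for Irgm2, 41 for Trim30d, 156 for Ifit3 and 213 for Cxcl10. Ifit1, Gbp3 and Ifit3 each held 2 matches, which in Gbp3 overlap.

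**Figure D3:**
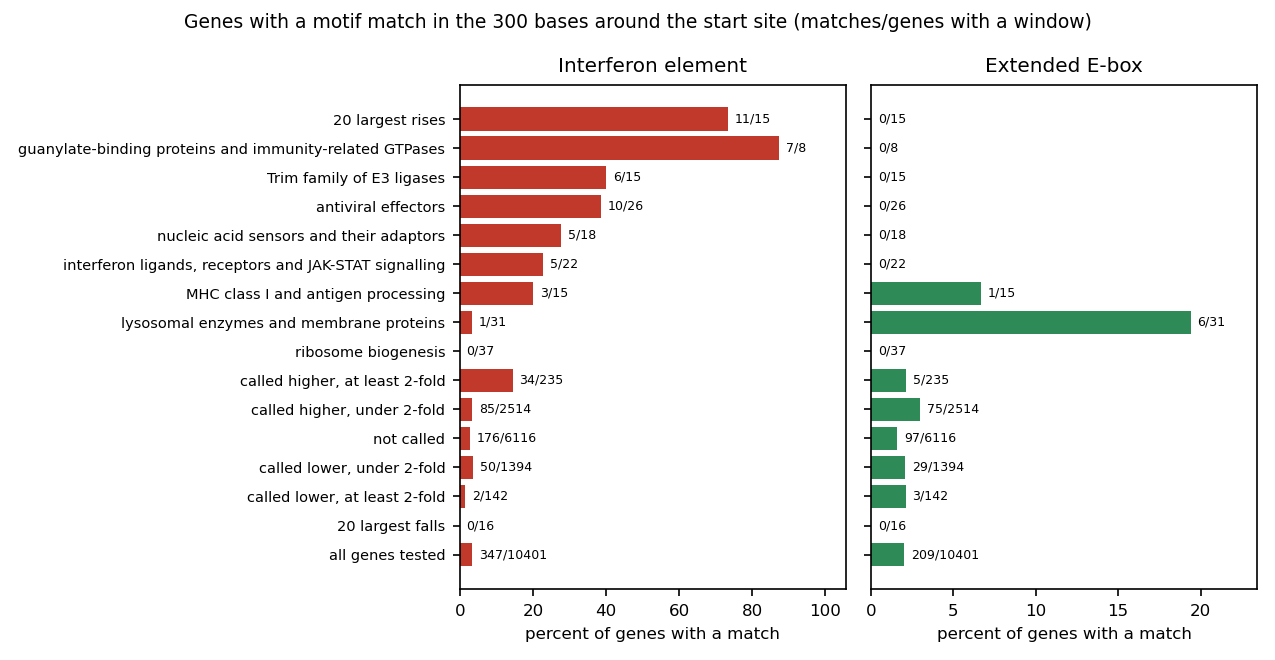
Percent of genes (x axis) with a match to the interferon element (left) or to the extended E-box TCACGTGA (right) in the window around the start site, for gene sets by row, with matches over genes with a window beside each bar. The interferon element reaches 87.5% in the guanylate-binding protein and immunity-related GTPase genes and 3.34% in all genes tested, and the extended E-box 19.4% in lysosomal genes and 2.01% in all genes tested.

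All 16 genes with a fitted rise over 3 against 0 h were also higher at 24 h than at 12 h (limma). The 2 comparisons use the same 24 h arrays, so genes picked by their 24 h values tend to differ the same way in both. Between 12 h and 24 h, 2571 genes, or 19.9%, differed (limma, adjusted p under 0.05), 1626 higher at 24 h (12.6%) and 945 lower (7.3%). The rises numbered 1017 without replicate 2 of the AICAR 24 h cells, beside 759 falls, and 1045 without replicate 3 of the 12 h cells, beside 950 falls. With only the arrays of those 2 groups in the fit, 1349 passed. Of 34 antiviral effector genes 28 were higher at 24 h than at 12 h, with a median difference of 1.36, and 17 of the 34 had already passed at 12 h against 0 h. Ifit1 averaged 9.72 at 24 h and 5.57 at 12 h, a difference of 4.15 ± 0.13 (SE). Rtp4 stood 4.06 higher than at 12 h and Rsad2 3.35 higher. Usp18 averaged 7.89 at 24 h and 4.47 at 12 h, and all 3 arrays at 12 h were below background, so that Usp18 was at least 6.97-fold higher. Gbp3 averaged 8.25 at 24 h and 5.03 at 12 h, with 2 of 3 arrays at 12 h below background. The largest falls since 12 h were in Grem1 by 1.83, Dynap by 1.58, Rin1 by 1.46, Flrt2 by 1.41 and Cavin2 by 1.37. Of the 3342 genes higher than at 0 h, 1365 were also higher than at 12 h and 29 were lower. Of the 1887 genes lower than at 0 h, 751 were lower than at 12 h and 17 higher. Many of the larger changes had also passed at 12 h. Against 0 h, 13 of the 16 genes, 252 of the 308 at least 2-fold higher and 160 of the 191 at least 2-fold lower had passed the same way at 12 h. The comparisons of 24 h and of 12 h with 0 h share the control arrays, so genes picked in the first tend to pass in the second. The share of all genes tested that passed at 12 h against 0 h was not counted.

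**Figure D4:**
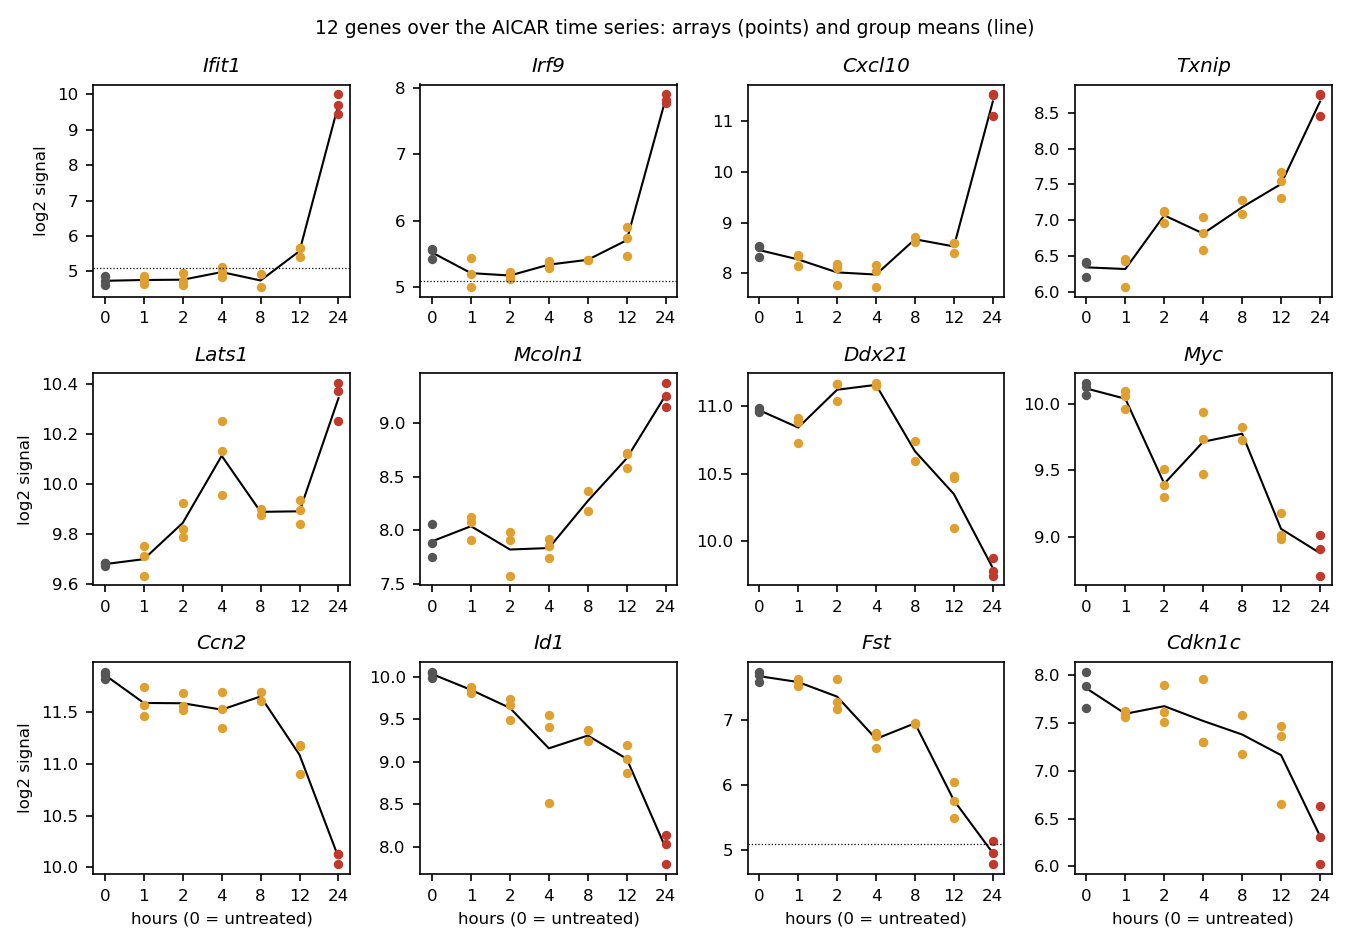
Log2 signal (y axis) of 12 genes over the hours in AICAR (x axis, not to scale; 0 is untreated), points for arrays and a line through the group means, with the background level dotted where it lies in reach. Ifit1, Irf9 and Cxcl10 rise between 12 and 24 h, while Id1, Ccn2, Ddx21 and Cdkn1c were lowest at 24 h.

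The Hippo kinases themselves moved in opposite directions. Lats1 had 10.40, 10.37 and 10.25 in AICAR 24 h cells, against 9.68, 9.69 and 9.67 in 0 h cells, a rise of 0.66 ± 0.07 (SE; limma adjusted p = 9.92e-07). A second probe set rose by 1.46, and the mean of both was 1.06. Lats2 had 7.78, 7.82 and 7.35 at 24 h, against 8.20, 8.14 and 8.29 at 0 h, and fell by 0.56 ± 0.14 (adjusted p = 0.00391; -0.30 averaged over probe sets). All 3 treated arrays were below the controls, but the other 3 probe sets for Lats2 past the filter, at -0.17, -0.54 and -0.25, did not pass on their own. Yap1, at 10.14 ± 0.08 and 10.23 ± 0.05, and Wwtr1, the gene for TAZ, at 10.37 ± 0.12 and 10.36 ± 0.04 (SD, n = 3 each, at 24 h and 0 h), overlapped and did not pass (limma adjusted p = 0.423 and 0.979). Both were chosen after their values were seen. Of 26 Hippo pathway genes 4 rose and 12 fell, with a median of -0.29. The rises were Lats1, the kinase cofactor gene Mob1a by 0.54, the scaffold gene Sav1 by 0.51 and Taok3 by 0.31. Averaged over probe sets, Mob1a was 0.34 and Sav1 0.30 higher.

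Genes that YAP and TAZ are known to induce were lower. Of 19 such genes 13 fell and 0 rose, with a median of -0.43. Ccn2, a matricellular growth factor gene and a standard YAP target, had 10.13, 10.13 and 10.03 at 24 h, against 11.87, 11.90 and 11.82 at 0 h, and fell by 1.77 ± 0.10 (SE; limma adjusted p = 1.67e-10). The 2 groups were each tight and more than 1.5 log2 units apart. Gadd45b, a stress-response gene, fell by 1.30, and Crim1, a transmembrane regulator of growth factors, by 0.97 (1.49 averaged over probe sets). Amotl2, which is both a YAP target and a scaffold that binds YAP, fell by 0.96. Lats2 is also a member of this list, so its fall is counted in both.

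The cytoskeletal and matrix genes of fibroblasts were mixed. Among 23 contractile and cytoskeletal genes 3 rose and 9 fell. Acta2, smooth muscle actin, had 10.61, 10.53 and 10.60 at 24 h, against 11.81, 11.82 and 11.77 at 0 h, a fall of 1.22 (0.69 averaged over probe sets), while the small GTPase gene Rhob rose by 1.51. Of 33 collagen and matrix genes 6 rose and 16 fell, with a median of -0.22. The matrix glycoprotein gene Tnc fell by 1.06, whereas the collagen gene Col6a2 rose by 1.24 and Thbs2, which encodes an anti-angiogenic matrix protein, by 1.04.

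Some of the largest falls belonged to BMP and activin signalling, in which the ID proteins are the classical early targets. Id1, an inhibitor of basic helix-loop-helix transcription factors, had 8.03, 8.14 and 7.79 at 24 h, against 10.06, 9.99 and 10.05 at 0 h, a fall of 2.05 ± 0.18 (SE; limma adjusted p = 7.27e-08). Id2 fell by 1.92, and Id3, Id4 and the inhibitory Smad gene Smad6, chosen after their values were seen, by 1.19, 1.42 and 1.22. Extracellular antagonists fell as well. Fst, the activin-binding protein follistatin, had 5.13, 4.78 and 4.95 at 24 h, against 7.69, 7.74 and 7.58 at 0 h. Of the 3 treated arrays 2 were below background, and the fitted fall was 2.72 ± 0.13 (adjusted p = 3.47e-11). Grem1, a secreted BMP antagonist, had 7.04, 6.31 and 6.25 at 24 h, against 8.73, 8.68 and 9.21 at 0 h, and fell by 2.34 ± 0.31 (adjusted p = 6.45e-06). The list as a whole was spread in both directions. Of 30 TGF-beta, BMP and activin genes 6 rose and 12 fell, with a median of -0.02, and the rises included the betaglycan gene Tgfbr3 by 0.64 (0.26 averaged over probe sets) and Smad4, the shared partner of receptor-activated SMADs, by 0.59 (0.29 averaged over probe sets).

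Other large falls had no list in common. Pcdh18, a protocadherin gene, fell by 2.60 (1.59 averaged over probe sets), Cavin2, a coat protein gene of caveolae, by 2.15. Rgs16, which shortens G-protein signals, fell by 1.99 (1.29 averaged over probe sets). Dynap fell by 2.63, Mir100hg, a host gene of microRNAs, by 2.30, Rin1, a RAS effector gene, by 1.98 and Flrt2, a cell adhesion gene, by 1.82. The transcription factor genes Sox2 and Sox11 fell by 1.95 and 1.86. Cirbp, the cold-inducible RNA-binding protein gene, had 6.25, 6.07 and 5.89 at 24 h, against 7.99, 8.22 and 7.88 at 0 h, a fall of 1.96 ± 0.10 (SE; limma adjusted p = 1.04e-10). It led a list of 29 splicing and RNA-binding genes in which 13 fell and 3 rose, the largest rise being Taf15, of the FET family, by 1.54 (0.80 averaged over probe sets).

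Most genes that build the ribosome fell, and most genes of the ribosome's own proteins did not pass the test. Myc had 8.91, 9.02 and 8.71 at 24 h, against 10.16, 10.12 and 10.06 at 0 h, a fall of 1.23 ± 0.10 (SE; limma adjusted p = 4.08e-08), with the groups apart on every array. Of 22 genes for MYC, its partners and canonical targets 15 fell and 3 rose. Apex1, a DNA repair nuclease gene, fell by 1.18, and the transferrin receptor gene Tfrc by 1.05 (0.32 averaged over probe sets). Mxd4, a partner of MAX that opposes MYC, rose by 1.45 (0.71 averaged over probe sets).

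Of 42 ribosome biogenesis genes 40 fell and 0 rose, with a median of -0.73, and all 42 were lower on every treated array than on any control array. Across all genes tested, 20% were lower in that way. Ddx21, a nucleolar RNA helicase gene, had 9.79, 9.88 and 9.75 at 24 h, against 10.97, 10.98 and 10.95 at 0 h, a fall of 1.16 ± 0.09 (limma adjusted p = 1.27e-08). Wdr43, a component of the small subunit processome, fell by 1.35, the pseudouridine synthase gene Dkc1 by 1.31 and the box C/D snoRNP gene Nop58 by 1.20 (0.77 with the actin 3′ to 5′ difference as a covariate). Of 24 RNA polymerase I and III genes 12 fell and 5 rose. Polr1e, a subunit of polymerase I, fell by 1.25 and Taf1d, of the selectivity factor that recruits it, by 1.33, while Maf1, the repressor of polymerase III, rose by 0.43 and the polymerase III subunit gene Polr3c by 0.76. Of 7 snoRNA host genes 5 fell, with a median of -0.80, among them Gas5, which fell by 1.70. Snhg5 fell by 1.64 (0.57 averaged over probe sets).

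Of 66 cytosolic ribosomal protein genes, by contrast, 0 rose and 2 fell, with a median of -0.00403, and 18 of the 66 (27.3%) were lower on every treated array, against 20% of all genes tested. Their signals lay close to the top of the arrays' range, with a median of 12.96 at 24 h and 12.98 at 0 h against a highest value of 13.5 on any array, and saturation at that level was not tested. The 2 falls were in genes of lower signal, Rpl14 by 0.42 and Rps15a by 0.46, the last of these at 5.24 ± 0.08 at 24 h and 5.69 ± 0.20 at 0 h (SD, n = 3 each). Rps15a did not pass without replicate 2 of the AICAR 24 h cells (-0.41) or replicate 1 of the controls (-0.36), nor with the actin 3′ to 5′ difference as a covariate (-0.33). Of 66 mitochondrial ribosomal protein genes 25 fell and 6 rose. Mrpl17 fell by 1.26 and Mrpl34 by 0.73, and Mrpl14 rose by 0.48; averaged over probe sets these were -0.66, -0.39 and 0.20. Of 24 aminoacyl-tRNA synthetase genes 16 fell, led by Vars, for valine, by 0.79, and 1 rose, Qars, for glutamine, by 0.48 (0.26 averaged over probe sets). Among 29 translation factor genes 10 fell and 0 rose, including Eif4ebp1, the inhibitor of cap-dependent translation, by 0.69.

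Nucleotide and one-carbon metabolism, into which AICAR itself feeds, was lower in many steps. Of 25 purine genes 12 fell and 3 rose, and the list's median was -0.19. Adk, the kinase that turns AICAR into ZMP, had 11.31, 11.28 and 11.29 at 24 h, against 11.55, 11.55 and 11.54 at 0 h, a small fall of 0.25 ± 0.06 (SE; limma adjusted p = 0.00322). Every treated array lay below every control array, as held for 20% of all genes tested. Of 6 tested genes for transport and removal of AICAR and adenosine 2 rose and 1 fell: Adal, an adenosine deaminase-like gene, rose by 0.62 (0.35 averaged over probe sets), Entpd1, an ectonucleotidase gene, by 0.18 (a call lost in 8 alternatives, among them 0.11 averaged over probe sets, 0.12 without replicate 2 of the AICAR 24 h cells, and 0.17 to 0.19 without any 1 of the controls), and the nucleoside transporter gene Slc29a2 fell by 0.41, with means of 4.61 at 24 h and 5.03 at 0 h that were both below background. Of 21 pyrimidine and deoxynucleotide genes 10 fell and 5 rose, with Rrm2, the regulated subunit of ribonucleotide reductase, lower by 0.95 and the uridine kinase gene Uck1 higher by 0.66. Of 19 folate and serine genes 13 fell, with a median of -0.43, and 1 rose, Mthfs, which returns stored folate to use, by 0.53.

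The knockout cells' own AMPK genes were checked first among the related kinases. Prkaa1 had 8.27, 8.36 and 8.16 at 24 h, against 8.23, 8.21 and 8.11 at 0 h, and Prkaa2 had 5.70, 5.84 and 5.76, against 5.59, 5.54 and 5.76. Neither difference passed (limma adjusted p = 0.522 and 0.663). A second probe set for Prkaa2 rose by 0.91 from a control mean of 4.68, below background, and the average of both passed at 0.33 (limma adjusted p = 0.0134). Where these probes lie relative to the deleted exons was not known here, so they check nothing about the knockout. Of 22 AMPK subunit, upstream and related kinase genes 10 rose and 2 fell. Sik2, a salt-inducible kinase of the same family, rose by 0.74, Snrk by 0.68, and Stradb, a pseudokinase partner of LKB1, by 0.58 (0.28 averaged over probe sets). Nuak1, another related kinase gene, fell by 0.57, which did not pass without replicate 3 of the AICAR 24 h cells (-0.44) or replicate 2 of the controls (-0.49), nor with the actin 3′ to 5′ difference as a covariate (-0.31). Stradb did not pass without replicate 3 of the controls (0.46).

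Txnip, which restrains glucose uptake, and some of its relatives rose, and genes of fatty acid metabolism changed in both directions. Txnip had 8.75, 8.76 and 8.46 at 24 h, against 6.20, 6.41 and 6.40 at 0 h, a rise of 2.32 ± 0.13 (SE; limma adjusted p = 3e-10). A second probe set rose by 0.39, and the mean of both by 1.35. Arrdc4, an arrestin-domain gene of the same family, rose by 1.49, and Arrdc3 was at least 2.73-fold higher. Of 21 genes of fatty acid synthesis and oxidation 9 rose and 4 fell. Cpt1a, which admits fatty acids to mitochondria, had 8.99, 8.90 and 8.92 at 24 h, against 7.67, 7.74 and 7.98 at 0 h, a rise of 1.14, whereas the elongase gene Elovl6 fell by 1.74 and the fatty acid synthase gene Fasn by 1.17. Of 20 cholesterol genes 9 fell and 4 rose, and Insig1, a brake on sterol synthesis, fell by 0.92. In glycolysis, 10 of 30 genes rose and 5 fell, shares near those of all genes tested. The hexokinase gene Hk2 fell by 1.17 and the pyruvate dehydrogenase kinase gene Pdk1 rose by 0.93 (0.57 averaged over probe sets). Of 49 respiratory chain genes 7 rose and 3 fell, both shares below those of all genes tested.

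Lysosomal genes were higher as a group. Of 37 genes for lysosomal enzymes and membrane proteins 24 rose and 0 fell, with a median of 0.37. Mcoln1, the lysosomal calcium channel mucolipin, had 9.38, 9.26 and 9.15 at 24 h, against 8.05, 7.89 and 7.75 at 0 h, a rise of 1.37 ± 0.11 (SE; limma adjusted p = 1.71e-08; 0.87 averaged over probe sets). Every treated array was above every control array, as held for 30% of all genes tested. Manba, a lysosomal mannosidase gene, rose by 1.05, and Cd68, a lysosomal membrane protein gene that is also used as a macrophage marker, was at least 1.70-fold higher, with the macrophage genes Ptprc, Adgre1 and Itgam below background on all 6 arrays. Npc1, the lysosomal cholesterol exporter gene, rose by 0.85, but did not pass without replicate 1 of the AICAR 24 h cells (0.72). Of 29 genes listed for autophagy and for the folliculin complex, which controls TFEB, 17 rose and 1 fell. The fall was in Tfrc, the transferrin receptor gene also given with the MYC genes, by 1.05 (0.32 averaged over probe sets). Rragd, a GTPase of the folliculin and TFEB pathway, rose by 1.03 (0.57 averaged over probe sets). Fnip1, of the folliculin complex, rose by 0.90, but did not pass when probe sets were averaged (0.68) or without probe sets that can match several transcripts (0.15).

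The extended E-box that TFEB and its relatives bind in many lysosomal promoters, searched as TCACGTGA, was found for 6 of 31 lysosomal genes with a window (19.4%), against 209 of 10401 genes tested (2.01%). Of these 6, 3 rose and 3 did not pass, while 24 of all 37 lysosomal genes tested rose. Mcoln1 and the proton pump genes Atp6v0d1 and Atp6v0e rose by 1.37, 0.54 and 0.37, whereas Ctsa, Ctsd and Gla differed by 0.03, 0.18 and -0.18 and did not pass (limma adjusted p = 0.778, 0.146 and 0.287). Ctsd passed without replicate 1 of the AICAR 24 h cells (0.27) and with the interquartile range as a covariate (0.22), and Gla passed as a fall with that covariate (-0.27) and after quantile normalization (-0.25). The stretches below set 1 that rose beside 2 that did not pass, with the element in capitals, GRCm38.p6.
Mcoln1, chr8:3500458-3500495, plus strand: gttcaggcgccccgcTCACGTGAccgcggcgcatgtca
Ctsd, chr7:142387904-142387941, minus strand: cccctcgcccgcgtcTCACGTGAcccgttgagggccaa
Ctsa, chr2:164833745-164833772, plus strand: acaatgagcaaactgTCACGTGAtgcag
The match starts 46 bases before the start site in Mcoln1, 99 in Ctsd and 13 in Ctsa.

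**Figure D5:**
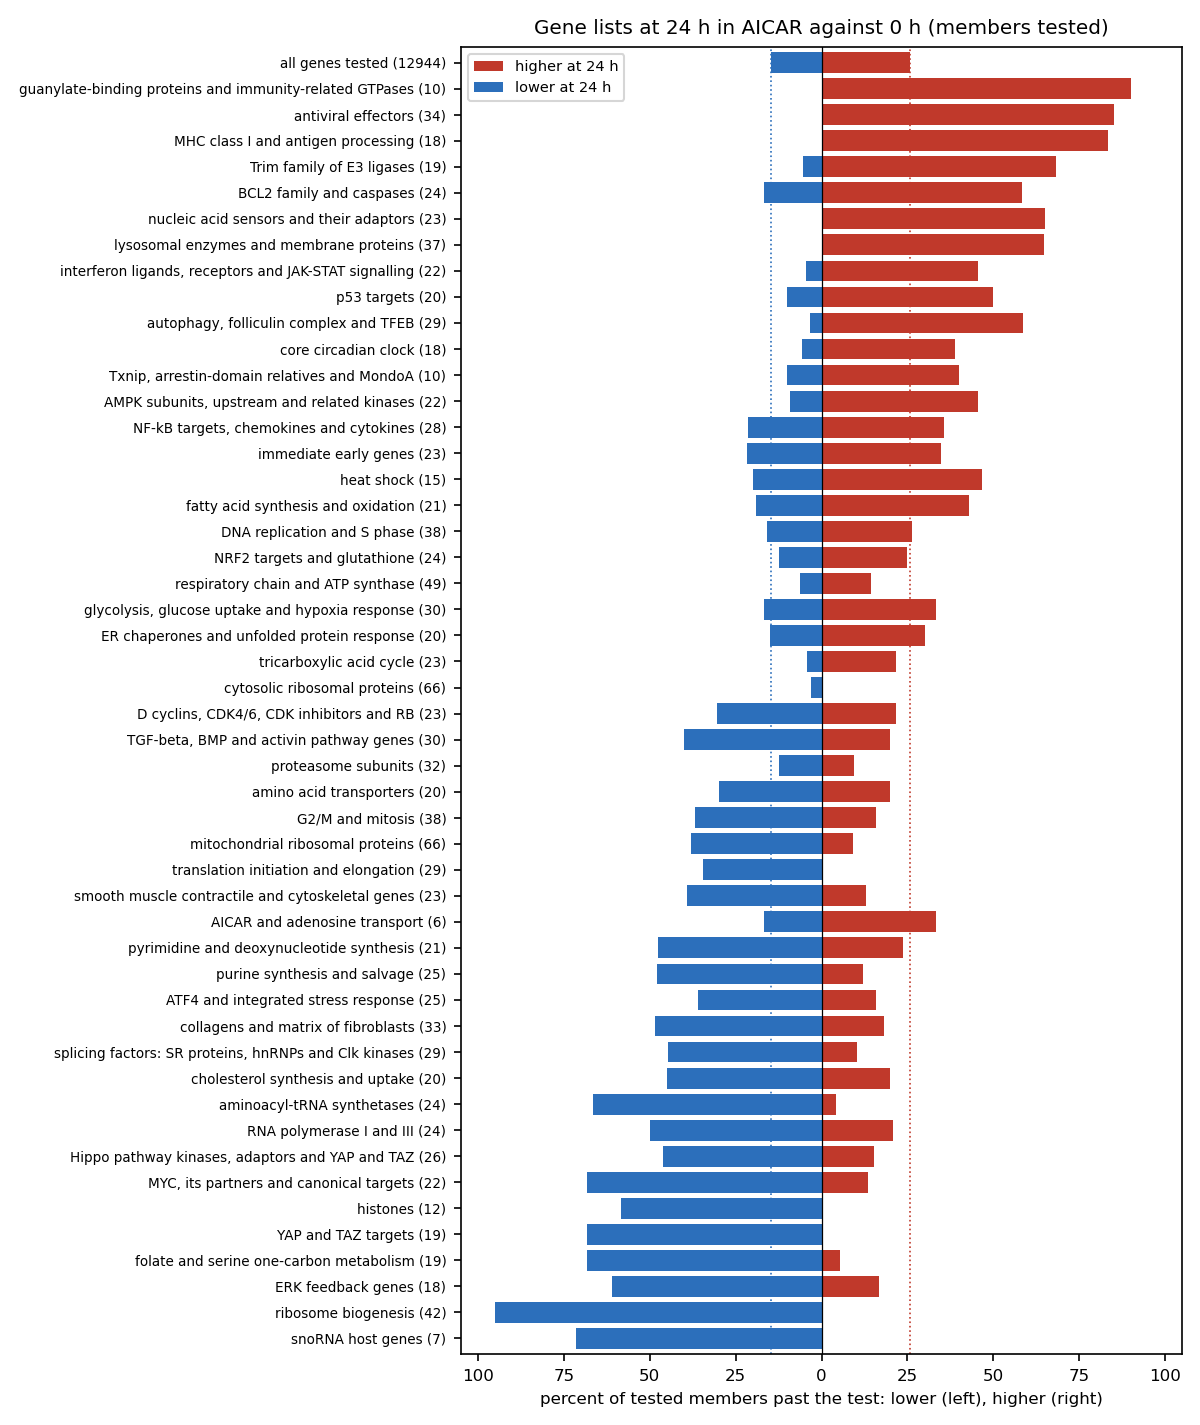
Percent of the tested members of each of 49 gene lists that passed the test at AICAR 24 h against untreated 0 h, higher to the right in red and lower to the left in blue, sorted by median change, with the number tested in brackets. Dotted lines mark all genes tested, 25.8% higher and 14.6% lower. Ribosome biogenesis has 40 of 42 members lower, and antiviral effectors 29 of 34 higher.

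Transcripts of ERK feedback genes were more often lower than higher, and ERK signalling itself was not measured. Of 18 ERK feedback genes 11 fell and 3 rose, with a median of -0.59. Dusp6, the phosphatase that inactivates ERK and is induced by it, had 7.96, 8.03 and 7.54 at 24 h, against 9.52, 9.45 and 9.44 at 0 h, a fall of 1.63 ± 0.16 (SE; limma adjusted p = 2.76e-07). Dusp4 fell by 1.61 and the EGF family ligand gene Hbegf by 1.56 (0.90 with the actin 3′ to 5′ difference as a covariate). Immediate early genes split, with 8 of 23 higher and 5 lower, against 25.8% and 14.6% of all genes tested. Egr1, a zinc finger transcription factor gene, had 11.19, 11.21 and 11.18 at 24 h, against 9.68, 9.75 and 9.82 at 0 h, a rise of 1.44, and Atf3, a stress-induced factor gene, rose by 1.51. Fosl1, an AP-1 subunit gene, fell by 1.51 and Ier3 by 1.16.

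Cell cycle genes changed in part. Ccnd1, cyclin D1, had 10.62, 10.62 and 10.82 at 24 h, against 11.68, 11.76 and 11.76 at 0 h, a fall of 1.05 ± 0.11 (SE; limma adjusted p = 5.89e-07). The CDK inhibitor gene Cdkn1c fell by 1.54 and the RB family gene Rbl2 rose by 0.90. Cdkn1a, the p21 gene, rose by 0.53 with the probe set of highest signal, but did not pass when probe sets were averaged (0.06). Of 38 genes of DNA replication 10 rose and 6 fell, shares near those of all genes tested. Of 38 genes of G2/M and mitosis 14 fell and 6 rose, with the mitotic kinase gene Aurka lower by 0.76 and Ccnb2, cyclin B2, higher by 0.65. Histone genes had 7 falls and 0 rises among 12, led by H1f2, a linker histone, by 1.94 and H2bc4 by 1.71.

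Apoptosis and p53 target genes leaned upward. Large T antigen of SV40, present in cells immortalized with that virus, is known to bind p53 and RB proteins. Of 20 p53 target genes 10 rose and 2 fell, with a median of 0.30. Pmaip1, the BH3-only gene for NOXA, had 9.41, 9.56 and 9.47 at 24 h, against 8.48, 8.44 and 8.10 at 0 h, a rise of 1.14 (limma adjusted p = 4.33e-08), and Ddb2, a DNA damage recognition gene, rose by 1.06. The 2 falls were in Perp by 0.80 and Aen by 0.78 (0.40 averaged over probe sets). Of 24 BCL2 family and caspase genes 14 rose and 4 fell: Apaf1, the scaffold of the apoptosome, rose by 0.80, and Bcl2 itself fell by 0.73.

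Lists for other stress programs, amino acid transport, the tricarboxylic acid cycle and the clock held both rises and falls, some at shares near or below those of all genes. Among 25 ATF4 targets and other integrated stress response genes 9 fell and 4 rose. Chac1, whose product breaks down glutathione, had 7.86, 7.90 and 7.88 at 24 h, against 9.39, 9.33 and 9.33 at 0 h, a fall of 1.47 ± 0.25 (SE; limma adjusted p = 0.000125), and Ddit3, which encodes CHOP, fell by 0.93. The kinase gene Eif2ak3, for PERK, rose by 0.95 (0.30 averaged over probe sets). Of 20 amino acid transporter genes 6 fell and 4 rose, with the taurine transporter gene Slc6a6 lower by 1.74 (1.03 averaged over probe sets). Heat shock genes had 7 rises and 3 falls of 15, genes of the endoplasmic reticulum stress response 6 and 3 of 20, NRF2 targets 6 and 3 of 24, the tricarboxylic acid cycle 5 and 1 of 23, and the circadian clock 7 and 1 of 18. The shares for endoplasmic reticulum stress (30% and 15%) and NRF2 targets (25% and 12.5%) were near the 25.8% and 14.6% of all genes tested. Both shares lay below those of all genes for the tricarboxylic acid cycle and above them for heat shock. The clock had a larger share higher and a smaller share lower, and the ATF4 and transporter lists the reverse.

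Markers of other cell types were looked at because an RNA sample can hold more than 1 kind of cell, and because in bulk RNA fewer cells of a type and less RNA per cell cannot be told apart. Of 7 tested macrophage markers Cd68 rose and 0 fell; the summed level of the 12 on the array was 8.61 to 8.74 at 24 h and 8.63 to 8.65 at 0 h, and Lyz2, Ptprc, Adgre1, Itgam, Aif1 and Mrc1 were below background on all 6 arrays. Of 5 lymphocyte markers 0 passed in either direction (limma), with summed levels of 8.04 to 8.25 at 24 h and 8.08 to 8.21 at 0 h. Epithelial markers summed to 10.03 to 10.12 at 24 h and 10.24 to 10.30 at 0 h, with Krt19 lower by 0.28. Endothelial markers summed to 8.23 to 8.41 at 24 h and 8.41 to 8.64 at 0 h, and Flt1, a receptor of VEGF, fell by 0.50, but did not pass when probe sets were averaged (-0.11). Of 2 adipocyte markers 0 passed, and of 8 skeletal muscle markers 1, Acta1, fell by 0.45. Of 13 tested fibroblast markers 1 rose and 4 fell, among them Thy1 by 0.22, which is below background on all 6 arrays and lost its call in 5 alternatives, among them without replicate 1 (-0.14) or 2 (-0.23) of the AICAR 24 h cells and replicate 1 (-0.21) or 3 (-0.19) of the controls. The summed level of the 16 on the array was 14.27 to 14.30 at 24 h and 14.34 to 14.35 at 0 h.

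Where a gene had several probe sets, they did not always move together. Of 4876 genes with at least 2 probe sets past the filter, 2405 had the chosen one called. For 857 of these all other probe sets were called the same way, for 1416 at least 1 other was not called and none opposed it, and for 132 another was called the opposite way. Kansl1l and Zwint, chosen after their values were seen, show the last case. Kansl1l had probe sets at -1.36 and 1.13, and Zwint, a kinetochore gene, at 0.61 and -1.13, all past the test (limma, adjusted over all single-symbol probe sets). Averaged over probe sets, Kansl1l was at -0.08 and Zwint at -0.05, neither past the test. For such genes the direction given depends on which probe set is taken.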

How the data were processed

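Total RNA was labelled and hybridised to Affymetrix MG-430 PM array strips, per the labels' protocols. The authors deposited 1 table of log2 values with a column for each of 20 arrays in 7 groups. Their normalization was not given in the sources used here. The log2 scale was inferred from the highest value, 13.5, which exceeds 11.1, the natural log of the 16-bit maximum.

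Of 45141 probe sets, 28898 had a single gene symbol in the platform annotation, and symbols were updated through a GRCm38.p6 gene table. The probe set with the highest mean stood for each of 17097 genes, and 12944 genes whose highest group mean exceeded 4.81 (the 40th percentile) were tested. One limma fit (limma 3.58.1, R 4.3.3) over all 20 arrays, with 13 residual degrees of freedom, gave both contrasts, and p-values were adjusted by Benjamini-Hochberg over all genes tested at a threshold of 0.05. Intervals after ± are standard errors of differences or, where stated, SDs. The number of arrays limits the precision. A gene below the background of 5.08 on all arrays of a group has only a bound there: the fold is the bright group's mean over the higher, per array, of the background and the gene's own value.

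Replicate 3 arrays deviated together from their group means (r = 0.639 between 24 h and 0 h, and 0.763 between 24 h and 12 h). Same-numbered arrays of replicates 1 and 2 had r = 0.221 and 0.230 between 24 h and 0 h, and 0.399 and 0.281 between 24 h and 12 h. Replicate 1 at 24 h with replicate 2 gave higher values, 0.360 at 0 h and 0.582 at 12 h. Replicate 2 at 24 h with replicate 1 gave 0.456 and 0.294. In these 2 comparisons only replicate 3 paired by number. A fit with the replicate number as a block was tried. Other alternatives were quantile normalization, median centring, other filters and probe set rules, variance and array weight options, covariates, and leaving out each array. On simulated data of 12944 genes the 24 h against 0 h fit recovered 99 of 100 changes of 1 and 67 of 100 changes of 0.5 on the log2 scale, with 10 of 176 calls false. The simulated noise was independent from array to array, and no other genes were changed. In the real data replicate 3 arrays deviated together and 40.4% of genes were called, so these rates need not hold there.

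The members and the 56 gene lists were chosen with earlier results of these data known. Named genes were selected from the 20 largest rises and falls without overlap of arrays, the 4 largest changes of each list with members of the minority sign, the 5 largest rises and falls against 12 h, and 10 genes of prior interest. Cell type markers and lysosomal genes with a promoter match were named as well. Figures were drawn with matplotlib 3.10.9.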

Additional observations from a re-analysis of the deposited data

Results flagged for a closer look

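Differences between the 24 h and 12 h effects, each against the same 0 h controls, were tested directly as 24 h minus 12 h. The 5 largest fitted rises were in Ifit1 (4.15), Rtp4 (4.06), Usp18 (3.42), Rsad2 (3.35) and Gbp3 (3.22), all on the log2 scale. Usp18 was below background on all 3 arrays at 12 h and was at least 6.97-fold higher, and Gbp3 was below it on 2 of 3, so the order of Usp18, Rsad2 and Gbp3 is not settled. The 5 largest falls were in Grem1 (-1.83), Dynap (-1.58), Rin1 (-1.46), Flrt2 (-1.41) and Cavin2 (-1.37). All 10 passed in limma.

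Probe sets without a single gene symbol took no part in the comparisons above. Of 8247 such probe sets past the filter, 1993 (24.2%) differed between AICAR 24 h and untreated 0 h in limma, 998 higher and 995 lower.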

How the results depend on the processing

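The 5229 genes past the test at 24 h against 0 h stayed within 1.5 times under every alternative run, from 4482 to 5096 with 1 array left out. The replicate block gave 5950, 501 at least 2-fold, and 3395 for 24 h against 12 h, kept all 5229 calls and moved no count by over 1.5 times. The 499 genes at least 2-fold changed became 822 when each probe set was tested on its own, which counts probe sets and not genes, and ranged from 470 to 554 with 1 array left out. Their split of 308 higher and 191 lower was 254 and 245 with the interquartile range as a covariate. The 2571 genes that differed between 24 h and 12 h became 1470 at an adjusted p under 0.01 and 1349 with the compared groups alone, which rests on fewer arrays, and ranged from 1776 to 2409 with 1 array left out. Of 157 genes named, 146 passed the test, and 134 of these did so with the same sign in every alternative that held the gene. The threshold of 0.01 was not among the alternatives for named genes. Of the rest, 1, Zwint, changed sign, to -0.0473 with probe sets averaged. Signal near background limits what can be seen for genes such as Ifnb1.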
